A study of Mus musculus with 2 samples.

Results

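Accessible chromatin was described at 10 genes that mark stromal fibroblasts or control their identity: Pdgfra, Cd34, Dcn, Dpt, Pi16, Tcf21, Twist1, Twist2, Prrx1 and Osr1. They were chosen by name, with earlier results of these data known, as 10 of the 21938 protein-coding genes of the GENCODE M21 annotation. Each gene was taken with its body and 50 kb on either side, called its window here. In DNase-seq, nuclei are digested with the enzyme DNase I, which reaches open chromatin more readily than packed chromatin, and a stretch that is cut often is called as a peak. The assay was run on nuclei of urinary bladder tissue from male B6CASTF1/J mice aged 36 days. These are F1 hybrids of C57BL/6J and CAST/EiJ, and the data were placed on the mm10 assembly, which represents C57BL/6J alone. The only group holds 2 libraries, replicate 1 and replicate 2. The labels number them as different males but give both the same donor record, so the spread between them may not be that between unrelated animals. With 1 group there is no contrast, so all values are descriptions and no test was made.

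Fibroblasts of the bladder wall lie in the lamina propria and between the muscle bundles, where they make and turn over the extracellular matrix. Pdgfra encodes the receptor for platelet-derived growth factors that is the usual surface marker of these cells, and Dcn, Dpt and Pi16 encode secreted or surface products of connective-tissue fibroblasts. Tcf21, Twist1, Twist2, Prrx1 and Osr1 encode transcription factors that set mesenchymal fate in the embryo and remain in use in many adult fibroblasts. Whole bladder also holds urothelium, smooth muscle, vessels and immune cells, so a low peak from fewer fibroblasts and a low peak from lower accessibility per cell cannot be told apart.

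The sequences of 3 sites are shown, each the only shared distal site of its gene's window or the one nearest to the gene start. Sites of Pi16 and Twist2 that also meet this description are not shown whole. Letters of a footprint in each of these are printed further below. A shared site is a stretch in which a peak of each library overlaps, and a distal site touches no window of 500 bases on either side of an annotated transcription start of any gene. Letters are those of the C57BL/6J reference, 5′ to 3′ on the plus strand of mm10, and capitals mark bases inside a footprint of at least 1 library. A footprint is a short stretch inside an accessible site that is cut less than its surroundings.

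Pdgfra, chr5:75151221-75151440: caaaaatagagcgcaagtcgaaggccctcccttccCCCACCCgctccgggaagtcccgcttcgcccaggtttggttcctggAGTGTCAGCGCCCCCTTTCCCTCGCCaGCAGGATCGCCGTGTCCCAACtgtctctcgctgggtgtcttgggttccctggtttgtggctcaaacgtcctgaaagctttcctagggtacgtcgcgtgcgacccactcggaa

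Dpt, chr1:164770681-164770960: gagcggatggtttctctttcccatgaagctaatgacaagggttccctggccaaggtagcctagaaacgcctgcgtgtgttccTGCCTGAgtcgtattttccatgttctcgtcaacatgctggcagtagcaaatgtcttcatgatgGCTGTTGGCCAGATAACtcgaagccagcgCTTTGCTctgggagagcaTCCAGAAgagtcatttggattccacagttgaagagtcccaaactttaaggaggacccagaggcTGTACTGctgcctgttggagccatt

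Osr1, chr12:9584865-9585088: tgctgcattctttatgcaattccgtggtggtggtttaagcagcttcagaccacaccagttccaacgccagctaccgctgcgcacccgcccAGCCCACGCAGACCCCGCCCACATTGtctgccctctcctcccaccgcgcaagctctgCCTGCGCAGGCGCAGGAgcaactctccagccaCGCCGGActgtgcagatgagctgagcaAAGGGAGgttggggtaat

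The Pdgfra site lies between genes, -1.0 kb from the Pdgfra start; negative distances are upstream along the gene's strand and are measured to the centre of the site. It is 220 bases long with 61.4% G and C, and footprints of both libraries covered the same 15 bases of it. At -25.8 kb from the Dpt start, the second site is intergenic, 280 bases long and 50.7% G and C, and 12 of its bases lay in footprints of both libraries. The Osr1 site is intergenic at 14.9 kb, beyond the end of the gene, 224 bases long and 61.6% G and C, with 10 bases in footprints of both libraries.

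The authors deposited a shorter and a longer peak list for each library, and values below come from the shorter list unless stated. It held 38674 peaks in replicate 1 and 47661 in replicate 2, with a median height of 1.46 and 1.15. Height is a deposited signal that came in whole multiples of 0.0113 in replicate 1 and 0.00893 in replicate 2. Its scale is not stated, and the absolute depth is unknown. Each height is therefore also given as a percentile, its rank among all peaks of its own library. At all 31612 shared sites, the height in replicate 2 divided by that in replicate 1 lay between 0.649 and 1.341 from the 5th to the 95th percentile. This range is the spread between the libraries against which the ratios below can be read.

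The fibroblast genes had few peaks around them. Their windows held 21 peaks in replicate 1 and 33 in replicate 2, with a median of 2 per gene in each library, a range of 0 to 5 in replicate 1 and a range of 0 to 12 in replicate 2. Over all protein-coding genes the medians were 4 and 5 peaks. The windows were also poor in other genes, with a median of 0 other protein-coding genes starting inside them against 2 over all genes. The member peaks were of ordinary height, with median percentiles of 54.1 and 46.9. In replicate 1, 16 of the 21 peaks (76.2%) overlapped a peak of replicate 2, against 86.1% of all replicate 1 peaks. In replicate 2, 16 of the 33 (48.5%) overlapped a peak of replicate 1, against 69.6% of all.

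Merging the peaks of both libraries gave 38 sites, of which 16 were shared, 5 were found in replicate 1 alone and 17 in replicate 2 alone. The shared sites divided evenly into 8 distal sites and 8 at an annotated start of some gene. Pdgfra held 5 of the 16, Cd34 and Pi16 held 3 each, Twist2 and Osr1 held 2 each, and Dpt held 1. Dcn, Tcf21, Twist1 and Prrx1 held none.

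**Figure D1:**
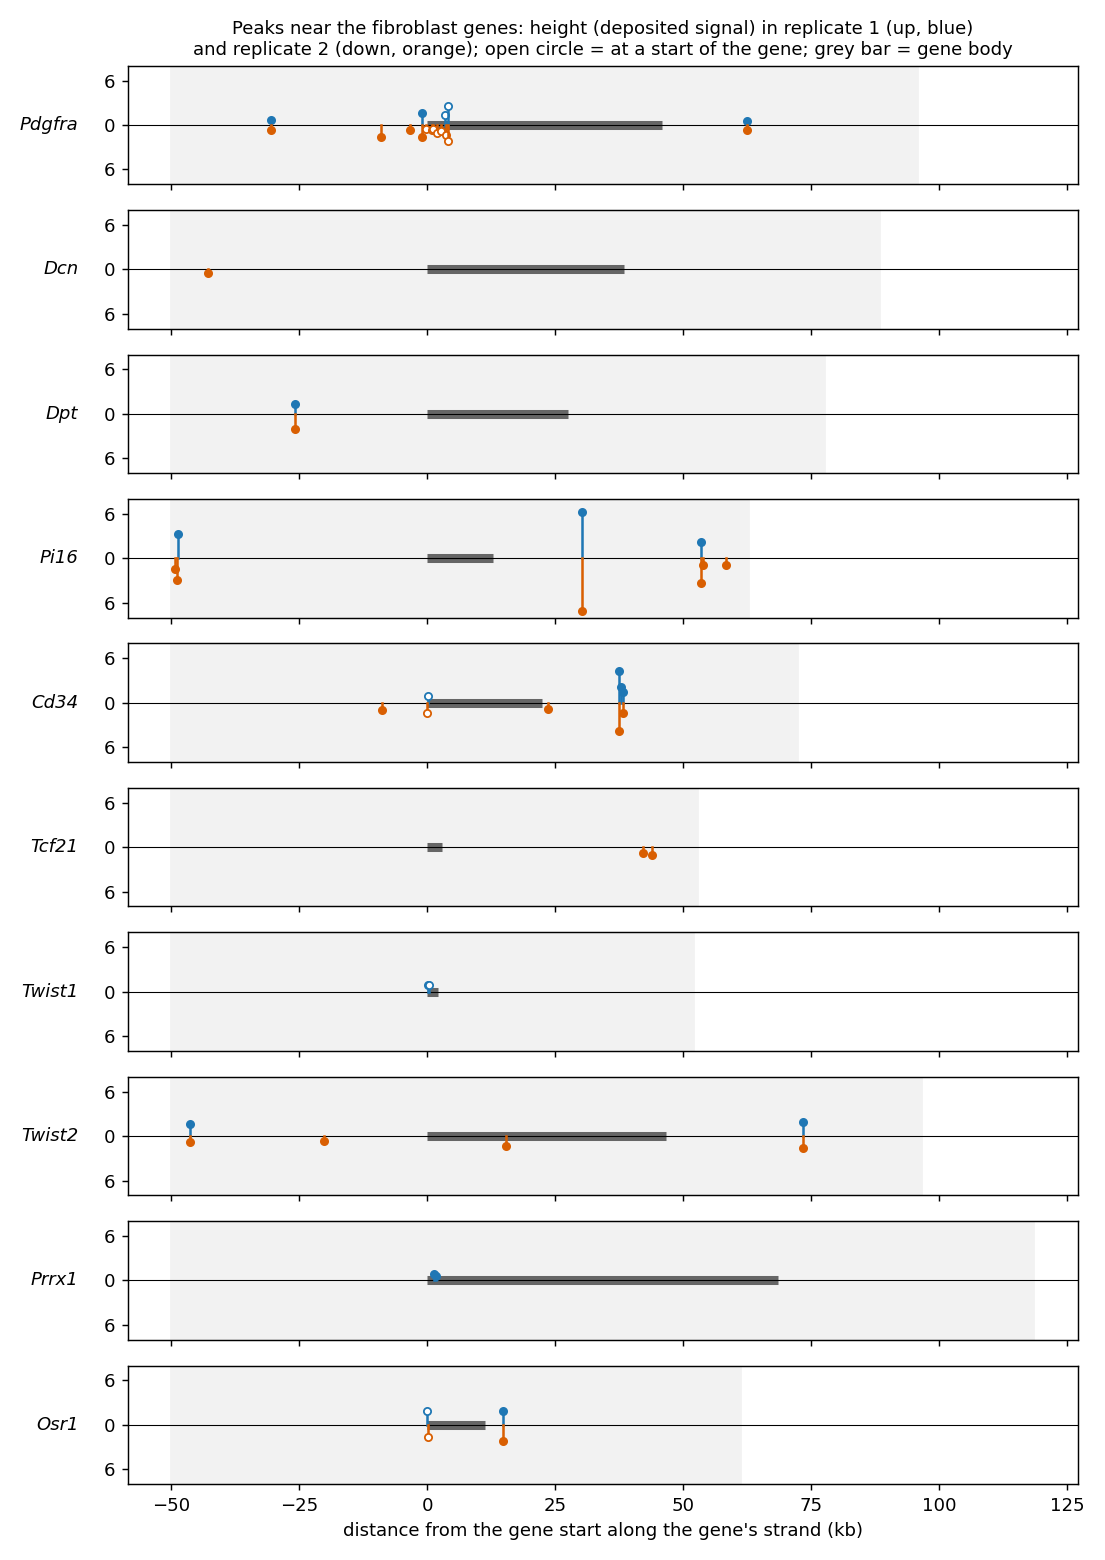
Peaks of the shorter list around the 10 fibroblast genes, plotted by distance from the gene start along the gene's strand in kb; bars rise for replicate 1 and fall for replicate 2, their length is the deposited height, open circles mark peaks at a start of the gene itself, and the light band is the window searched. Pdgfra has the most peaks, 5 and 12, while Dcn, Tcf21, Twist1 and Prrx1 have peaks in 1 library only.

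A start peak, meaning a peak within 500 bases of any annotated start of the gene, was present for 4 of the 10 genes in replicate 1, where 57.8% of protein-coding genes had one. It was present for 3 in replicate 2, against 58.6% of genes. In both libraries it was present for 3, namely Pdgfra, Osr1 and Cd34, against 56.3% of genes. The other gene in replicate 1 was Twist1. In the longer list, 7 of the 10 had a start peak in both libraries, against 61.4% of genes, the additions being Dcn, Dpt, Twist1 and Twist2. At least 1 shared distal site was found in the windows of 5 genes, Pdgfra, Dpt, Pi16, Twist2 and Osr1, where 64.3% of genes had one. The start peak count was below the share over all genes in the shorter list and near it in the longer list. The authors also deposited stretches with an FDR, a p-value adjusted for the many bases tested, of up to 0.05. Such a stretch lay within 500 bases of a start for 9 of the 10 genes in replicate 1 and 8 in replicate 2. Over all protein-coding genes the shares were 63.8% and 64.5%, so the direction of the difference varied with the limit used. No test of these differences was made.

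**Figure D2:**
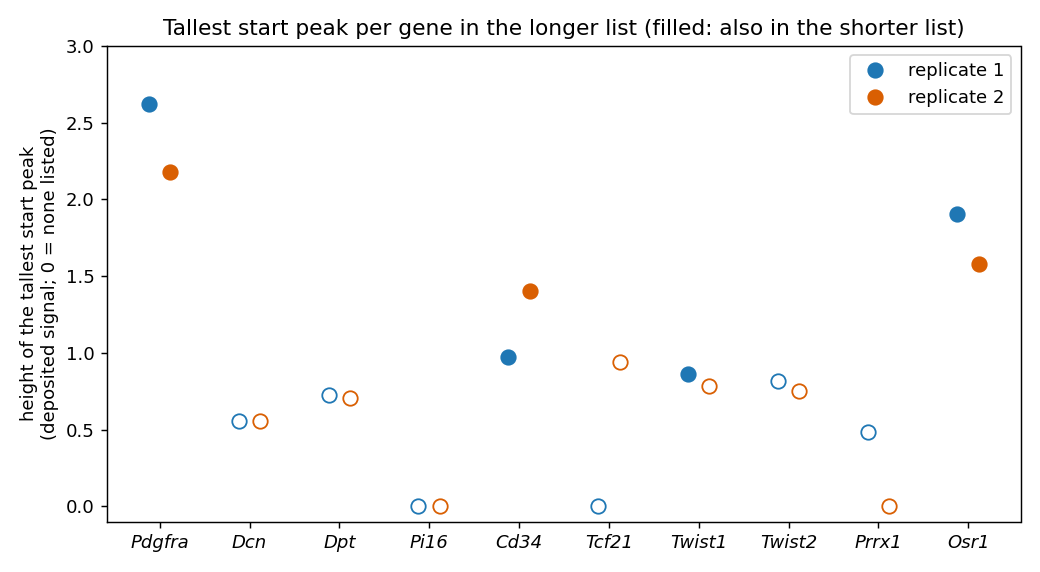
Height of the tallest start peak of each fibroblast gene in the longer list (vertical axis, deposited signal, 0 where none is listed), in replicate 1 (left point) and replicate 2 (right point); filled points are also in the shorter list. Pdgfra at 2.619 and 2.179 and Osr1 at 1.905 and 1.58 stand above the rest, and Pi16 has no start peak in either library.

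Among the receptor and surface genes, Pdgfra (chr5:75152292-75198215, plus strand) had the richest window. Its tallest site, at 4.1 kb inside the gene, reached a height of 2.619 in replicate 1 and 2.179 in replicate 2, at percentiles 76.9 and 77.7. This site overlaps an exon and an intron and lies within 500 bases of an internal start, 1 of the annotated Pdgfra starts, which number 9. Near that upstream start, at -0.2 kb, a peak of height 0.536 was listed in replicate 2 and none in replicate 1. In both libraries the tallest peak of the window therefore stood at an internal start.

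Further shared Pdgfra sites were matched closely between the libraries. The site at -1.0 kb, whose sequence is given above, had heights of 1.587 and 1.634. The site at 3.7 kb had heights of 1.372 and 1.33. The 2 farthest sites, at -30.5 kb and 62.4 kb, were low in both libraries, with heights of 0.703 and 0.616 for the first and 0.556 and 0.616 for the second. All 5 ratios fell inside the range between the libraries given above, from 0.832 at 4.1 kb to 1.109 at 62.4 kb.

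Pdgfra also held 7 sites found in the shorter list of replicate 2 alone, 5 of them between -0.2 and 2.8 kb with heights from 0.536 to 1.054. The tallest of the 7 lay at -8.9 kb and reached 1.554, at percentile 65.1. The longer list of replicate 1 has a peak of height 0.918 there, so this site was missing from replicate 1 only in the shorter list. At 2.0 kb, where replicate 2 reached 1.054, the longer list of replicate 1 has a peak of 1.338. The percentiles of these peaks in the longer lists were 66.1 in replicate 2 and 65.7 in replicate 1. The other 4 of those 5 sites had no peak in either list of replicate 1.

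Cd34 (chr1:194938819-194961279, plus strand) encodes a sialomucin of the cell surface that is carried by fibroblasts but also by endothelium and blood progenitors. Its start peak had a height of 0.975 in replicate 1 and 1.402 in replicate 2, at percentiles 26.1 and 60.4. The ratio of 1.438 was higher than at 97.3% of shared sites, so the libraries differed more here than at most sites. The tallest peaks of the window were not at Cd34 but at the starts of the long non-coding RNA genes A330023F24Rik and Gm16897, at 37.5 kb, with heights of 4.342 and 3.795. Beside it, a second shared site at 38.2 kb had heights of 1.474 and 1.429, and a peak of 2.177 at 37.8 kb was listed in replicate 1 alone. The shorter list of replicate 2 also had peaks of 0.991 at -8.7 kb and 0.893 at 23.6 kb, where the longer list of replicate 1 has 0.771 and 0.952.

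Because Cd34 also marks endothelium and blood cells, markers of those cells are given beside it. Of 10 endothelial markers, 3 had a start peak in each library and 2 in both, against 56.3% of all protein-coding genes in both. Vwf, the clotting factor carrier, was the tallest at 2.653 and 1.634. Kdr, a receptor for vascular endothelial growth factor, had 0.59 and 0.821, Eng had 1.0 in replicate 2 alone and Flt1 had 1.043 in replicate 1 alone. The other 6 endothelial markers had no start peak in either library. In both longer lists 4 of the 10 had one, against 61.4% of all protein-coding genes. The haematopoietic markers Ptprc, Spi1, Csf1r and Cd3e had no start peak in either library. The part of these cells in the Cd34 peak was not tested.

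The matrix genes had few peaks in the shorter list. Dcn (chr10:97479609-97518143, plus strand) encodes decorin, a small leucine-rich proteoglycan that binds collagen fibrils. Its only peak was a low one in replicate 2, of height 0.491 at -42.7 kb, at percentile 4.9, where the longer list of replicate 1 has 0.476. At the Dcn start itself, the longer lists had peaks of 0.556 in replicate 1 and 0.554 in replicate 2, so a low start peak was seen at almost the same height in both libraries.

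Dpt (chr1:164796644-164824266, plus strand) encodes dermatopontin, a small matrix protein that binds decorin. It had 1 site, the shared site at -25.8 kb shown above, with a height of 1.383 in replicate 1 and 2.027 in replicate 2, at percentiles 46.9 and 75.3. The ratio of 1.465 exceeded that of 97.7% of shared sites. The lowest FDR the authors deposited within the peak, a p-value adjusted for the many bases tested, was 1.65e-09 in replicate 1 and 8.68e-21 in replicate 2. At the Dpt start the longer list had peaks of up to 0.726 in replicate 1 and of 0.705 in replicate 2, lower than the distal site in each library.

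Pi16 (chr17:29317680-29330593, plus strand) encodes a peptidase inhibitor that marks adventitial fibroblasts. It had no start peak in the shorter or the longer list of either library. The peaks of its window lay at or inside neighbouring genes. The tallest stood at the start of Mtch1, which encodes a mitochondrial carrier homologue, at 30.2 kb, with heights of 6.213 and 7.125 and percentiles of 99.0 and 99.6. Another lay at the BC004004 start at -48.8 kb, with heights of 3.265 and 2.982. The shared distal site of the window lay in an intron of Fgd2, at 53.5 kb, with heights of 2.154 in replicate 1 and 3.304 in replicate 2, a ratio of 1.534 that exceeded 98.5% of shared sites. In the shorter list of replicate 2 alone, peaks stood at -49.3 kb with a height of 1.491, at 53.8 kb with 0.848, and at 58.4 kb, a start of Fgd2, with 0.946. The longer list of replicate 1 has overlapping peaks of 1.009, 0.896 and 1.077. The latter pair had larger heights in replicate 1 but lower ranks. Their percentiles in the longer list were 47.0 and 56.3 in replicate 1, against 56.3 and 61.6 in replicate 2.

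**Figure D3:**
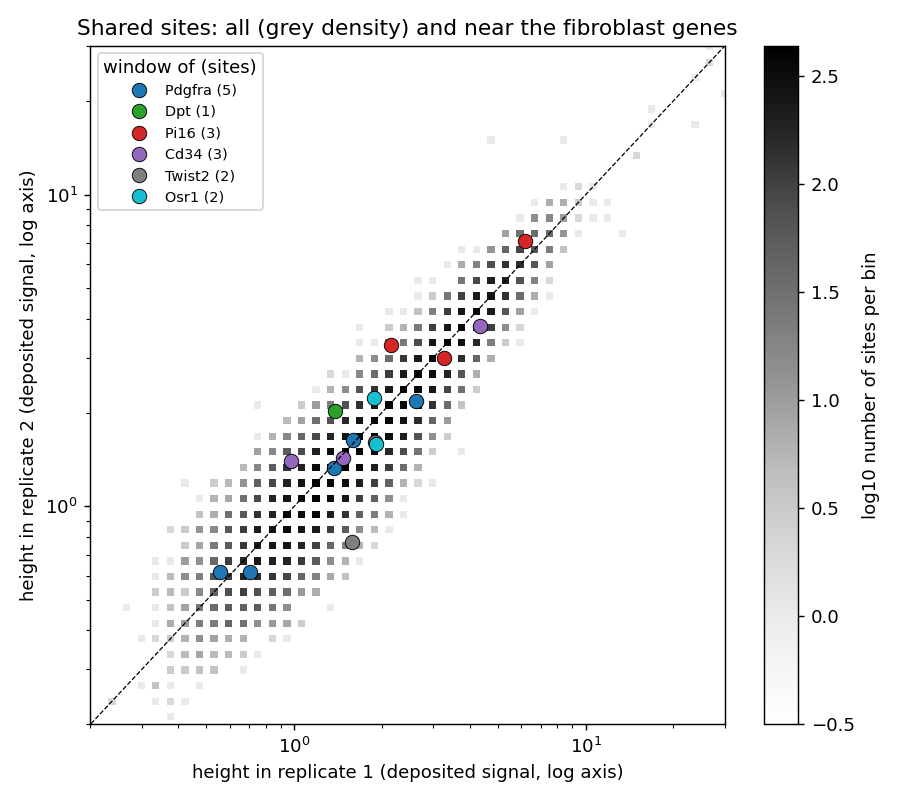
Heights of shared sites in replicate 1 (horizontal, log axis) and replicate 2 (vertical, log axis), both in the deposited signal; grey squares give the density of all 31612 shared sites, coloured points the 16 shared sites of the fibroblast genes by window, and the dashed line marks equal heights. Most coloured points lie in the dense band, the Dpt site, the Pi16 site in Fgd2 and the Cd34 start lie towards its upper edge or above it, and the Twist2 site of 1.576 against 0.768 lies below it.

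Of the transcription factor genes, Osr1 was the one with a start peak in both libraries. Osr1 (chr12:9570116-9581500, plus strand) encodes a zinc finger factor of the early urogenital mesenchyme. Its start peak had heights of 1.905 in replicate 1 and 1.58 in replicate 2, at percentiles 63.5 and 65.8, and the site also lies at a start of the non-coding gene 1700022H16Rik. The site at 14.9 kb, shown above, had heights of 1.871 and 2.232, at percentiles 62.6 and 78.5. The ratios of 0.83 and 1.193 fell inside the range between the libraries, so both Osr1 sites were of similar height in the 2 libraries.

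The paralogues Twist1 and Twist2 encode basic helix-loop-helix factors of the mesenchyme. Twist1 (chr12:33957671-33959829, plus strand) had peaks of 0.828 and 0.862 at its start in replicate 1 and none in its window in replicate 2. The longer list of replicate 2 had a start peak of 0.786, so the libraries differed in the listing more than in the height. Twist2 (chr1:91801461-91848028, plus strand) had no start peak in the shorter list of either library, and 0.816 and 0.75 in the longer ones. Its shared sites were distal. The one at -46.2 kb had heights of 1.576 and 0.768, a ratio of 0.487 that was below all but 0.285% of shared sites, the widest difference between the libraries among the 16. The other, at 73.4 kb, had heights of 1.893 and 1.607, inside the range between the libraries. An intronic peak of 1.277 at 15.4 kb was listed in replicate 2, where the longer list of replicate 1 has 0.805, and a peak of 0.714 at -20.1 kb was in replicate 2 alone.

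In the shorter list, Tcf21 and Prrx1 each had peaks in 1 library only. Tcf21 (chr10:22817281-22820174, minus strand), which encodes a helix-loop-helix factor of visceral mesenchyme, had peaks of 1.089 at 43.9 kb and 0.741 at 42.1 kb in replicate 2. The longer list of replicate 1 had peaks of 0.816 and 0.635 overlapping them, and the Tcf21 start had a peak of 0.938 in the longer list of replicate 2 alone. Prrx1 (chr1:163245119-163313710, minus strand), which encodes a homeodomain factor of limb and craniofacial mesenchyme, had peaks of 0.635 at 1.7 kb and 0.85 at 1.3 kb in replicate 1. Replicate 2 had no peak in the Prrx1 window in either list. Neither gene had a shared site in the shorter list.

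Sites found in a single library differed in base composition. The 5 member sites of replicate 1 alone, which lie at Twist1, at Prrx1 and in the Cd34 window, had 66.8 to 77.8% G and C with a median of 67.9%. The 17 of replicate 2 alone had 44.4 to 67.9% with a median of 54.6%, and the 16 shared sites had a median of 61.3%. Over all merged sites of the genome the same classes had medians of 58.3%, 52.5% and 58.5%, and sites above 65% were 27.0% of those in replicate 1 alone against 8.0% of those in replicate 2 alone. The part of base composition in the listing of Twist1 and Prrx1 in replicate 1 was not tested.

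The starts of the fibroblast genes were mostly poor in CpG. Over 500 bases on either side of the gene start, the observed number of CpG dinucleotides divided by the number expected from base composition had a median of 0.47 for the 10 genes, against 0.55 for all genes. It was 0.73 for genes whose start was called in both libraries and 0.21 for the other genes. Pi16 at 0.21, Dcn at 0.24 and Dpt at 0.26 were lowest, and none of them had a start peak in the shorter list. Osr1 at 0.47 and Cd34 at 0.48 had start peaks in both libraries, while Tcf21 and Prrx1, also at 0.47, did not. The ratio of 0.4 for Pdgfra belongs to its most upstream start, whereas its start peaks in both libraries lie at internal starts, at 3.7 and 4.1 kb, in sites with 62.0% and 70.0% G and C. When the most upstream start alone was considered, the count of genes with a start peak in each library was 2 of the 10. Twist1 at 0.87 and Twist2 at 0.8 were the CpG-rich ones.

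At a CpG ratio of at least 0.6, a start peak was called in each library for 89.2% of 10083 genes, and Twist1 and Twist2 were both among those without. Under 0.6, 28.2% of 11855 genes had one, and so did 3 of the 8 fibroblast genes there. These 3 were Osr1, Cd34 and, through its internal starts, Pdgfra. In the longer list Twist1, at 0.862 and 0.786, and Twist2, at 0.816 and 0.75, had a start peak in both libraries, so the statement on the Twist paralogues holds for the shorter list alone.

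**Figure D4:**
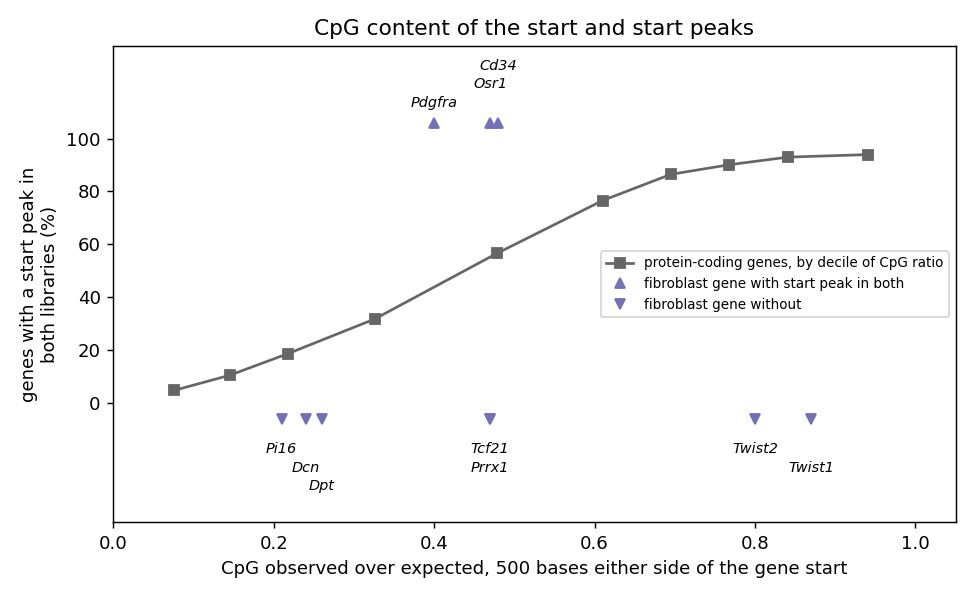
Share of protein-coding genes with a start peak of the shorter list in both libraries (vertical, percent) by decile of the CpG observed over expected ratio of the gene start (horizontal, squares at each decile's median); triangles place the 10 fibroblast genes on the same horizontal axis, pointing up with and down without a start peak in both, and their height carries no value. Twist1 and Twist2 lie in deciles where 93.0% and 90.1% of genes have a start peak in both libraries, and neither has one in both shorter lists, while both have one in both longer lists; the Pdgfra start peaks lie at internal starts, away from the start whose ratio is plotted.

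Footprints inside the member peaks numbered 33 in replicate 1 and 70 in replicate 2, or 1.57 and 2.12 per peak against 2.59 and 2.48 over all peaks. At the 16 shared sites, footprints of at least 15 bases overlapped a footprint of the other library more often than shorter ones. An overlap of 1 base was enough, which a wider footprint reaches more easily, so width itself adds to this difference. In replicate 1, 13 of 14 wide footprints (92.9%) overlapped one of replicate 2, and in replicate 2, 13 of 19 (68.4%) overlapped one of replicate 1. Of the narrower ones, 8 of 26 (30.8%) and 10 of 32 (31.2%) did so. Over all shared sites the shares were 94.0% and 92.1% for wide and 46.6% and 43.7% for narrow footprints.

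Several wide footprints that recurred held a match to the core of the motif of CTCF, the zinc finger protein that binds at chromatin loop anchors and insulators. With up to 2 mismatches, and with footprints extended by 5 bases on each side, 4 of the 16 shared sites had a match in a footprint of each library, against 26.1% of all shared sites. The count for these genes is near the share over all sites. Only letters inside a site were searched, so a footprint that crosses the edge of its site was searched in part. A wide footprint at the Osr1 start began outside the site in both libraries. Its letters hold a core match within the limit of 2 mismatches in each library. That match crosses the edge of the site, so the count of 4 leaves it out. The 4 counted matches are printed to show the letters of wide footprints that recurred. Capitals mark the core match, on the plus strand of mm10.

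Pdgfra at 4.1 kb, chr5:75156365-75156394: ttgccGCGCCCTCTAGTGGctcccgcagcg

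Pi16 window at 53.5 kb, chr17:29371196-29371227: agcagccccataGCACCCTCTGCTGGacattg

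Twist2 at -46.2 kb, chr1:91755254-91755282: ccggcgagcaTCGCCCCCTTGTGGtcttg

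Twist2 at 73.4 kb, chr1:91874837-91874878: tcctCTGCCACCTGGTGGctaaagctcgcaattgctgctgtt

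The tallest Pdgfra site thus held such a footprint in both libraries, with 0 mismatches, as did the Twist2 site at 73.4 kb. The Twist2 site at -46.2 kb, which differed most between the libraries, held one in both of them with 2 mismatches. A match describes the letters and does not show that CTCF was bound.

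Motifs known from the fibroblast factors themselves were searched in the 16 shared sites, with the share of all shared sites given in brackets. The general E-box CANNTG was in 11 of them, against 67.8% of all shared sites. Among its forms, which overlap it, CATATG and CATCTG, known from Twist dimers, were in 0 and 3 sites (1.55% and 14.6% of all), and CAGCTG, known from Tcf21, was in 2 (19.1%). CACGTG was in 2 sites (7.99%), at Pdgfra -30.5 kb, inside footprints of both libraries, and at the Mtch1 start, where it counted as in footprints of both only with the extension by 5 bases. GCTACTG, the form known from Osr proteins, was in 2 (3.32%), at Pdgfra 4.1 kb and at Dpt -25.8 kb, and TAATTA, a homeodomain form, was in 0 (1.71%).

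Motifs of other factor families were searched in the same way. TGANTCA of AP-1 was in 1 site (9.52%), GGAATG of TEAD factors in 0 (12.2%), TGTTTAC of forkhead factors in 0 (3.08%), and TTGGCA of nuclear factor I in 2 (13.6%). TGTGGT of Runx factors was in 5 (13.7%). In the Twist2 site at -46.2 kb, its letters overlap the CTCF core match printed above. GGGCGG of Sp factors was in 6 (43.9%) and TTCCGG of ETS factors in 4 (18.2%), among them the Osr1 start, where it lay in a footprint of each library. TTATCT, or AGATAA on the other strand, of GATA factors was in 1 (5.70%), the Dpt site at -25.8 kb. There AGATAA lay inside the footprint of replicate 1 and within 5 bases of that of replicate 2. All letters were searched on both strands, and absence from a site says nothing about the factor.

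Start peaks of genes related to the 10 are given by family. Over all protein-coding genes, 57.8% had one in replicate 1, 58.6% in replicate 2 and 56.3% in both. In both longer lists 61.4% had one. The families are small, and differences between them were not tested. All 4 genes of PDGF ligands had a start peak in each library, Pdgfa highest at 2.052 and 1.42. Pdgfc had 1.315 and 1.232, Pdgfd 1.066 and 1.25, and Pdgfb 1.27 and 0.839. Pdgfrb, which encodes the other receptor, had one in replicate 2 alone in the shorter list and in both longer lists. Of the 9 small leucine-rich proteoglycans related to decorin, none had a start peak in either library, and 1 had one in both longer lists. Both relatives of Cd34 had start peaks in both libraries, Podxl2 at 1.474 and 0.991 and Podxl at 1.122 and 0.911.

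Partners and relatives of the transcription factors had a start peak in both libraries in 14 of 23 cases, near the 56.3% of all protein-coding genes. The counts were 16 in replicate 1 and 17 in replicate 2, where 57.8% and 58.6% of all protein-coding genes had one. In both longer lists the count was 18, against 61.4% of all protein-coding genes. By mean percentile over the libraries, the highest were the helix-loop-helix inhibitors Id2, at 4.66 and 4.973, Id3, at 3.39 and 4.5, and Id1, at 3.106 and 4.286. Next came Tcf4, an E protein that pairs with Twist and Tcf21, at 3.673 and 3.206. These 4 partners had taller start peaks in both libraries than any of the 5 factor genes. They were named as the highest of the 23, so this does not describe the list as a whole. Other genes of the list had no start peak in either library.

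A wider list of 20 stromal genes had a start peak in 8 cases in both libraries, against 56.3% of all protein-coding genes. The counts were 8 in replicate 1 and 11 in replicate 2, where 57.8% and 58.6% of all protein-coding genes had one. In both longer lists the count was 11, against 61.4% of all protein-coding genes. S100a4, a calcium-binding protein, was highest at 3.866 and 5.75, followed by Col1a1, a fibrillar collagen chain, at 2.664 and 2.848. Vim, the mesenchymal intermediate filament, had 1.508 and 2.348, and Fbln1, a matrix glycoprotein, had 1.791 and 1.643. In markers of the other cells of the bladder, start peaks were present in both libraries for 6 of 8 urothelial genes, 1 of 8 of smooth muscle, 2 of 6 of pericytes and 0 of 4 of mesothelium, against 56.3% of all protein-coding genes. In the longer list these counts were 7, 3, 5 and 2, against 61.4% of all protein-coding genes. Of 4 skeletal muscle genes, 2 had one in replicate 1 and 1 in replicate 2, against 57.8% and 58.6% of all protein-coding genes. In both libraries 1 had one, and 1 had one in both longer lists. By mean percentile the highest of the first 3 lists were Grhl2, an epithelial factor, at 2.199 and 2.268, Myh11, the smooth muscle myosin, at 1.587 and 1.098, and Kcnj8, a potassium channel, at 0.986 and 0.804. The share of fibroblasts in the tissue was not measured.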

How the data were processed

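DNase-seq of 2 urinary bladder libraries was used as deposited. The authors deposited, for each library separately, peak lists, footprints and per-site FDR values on mm10, per the labels and the text beside the files; which aligner, peak caller and footprint caller made them is not given in the sources used here. Peak height is a signal value the authors deposited without a stated scale. The FDR values the authors deposited are adjusted p-values, listed up to 0.05. The footprints the authors deposited carry the same score, 0.01, in each row, with no stated meaning.

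The list with fewer peaks was the main one. Positions were compared with GENCODE M21 and the GRCm38 sequence, whose 21 chromosomes contain all peak positions. Peaks and footprints were joined by an overlap of at least 1 base, footprints counted inside a peak when wholly within it, and sequence was read with pysam 0.24.0 and samtools 1.23.1, in Python 3.11.15 with numpy 2.4.6 and pandas 2.3.3; figures used matplotlib 3.10.9. The counting was tested on simulated peaks. The 10 genes are all named; of each other list, up to 4 genes with the highest mean percentile of their tallest start peak are named with values, and a gene of the marker lists is not reported here. Genes and lists were chosen with earlier results of these data known, and the CTCF motif after the footprints were seen. Alternatives were the longer list, the stronger 50% of peaks, other windows, overlap rules and single libraries. Depth is unknown, so no counting interval is given.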

Additional observations from a re-analysis of the deposited data

How the results depend on the processing

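The alternatives tried mainly moved counts, since no result carries a test. Start peaks in both libraries numbered 3 in the main list and 7 in the longer one; the other settings gave 2 to 4, with 3 to 4 when either library was left out. Genes with a shared distal site numbered 5, against 8 in the longer list, 2 within 10 kb of the gene body, and 6 to 8 when either library was left out and sharing was not asked. The median number of peaks per window, 2 in each library, became 4 and 6 in the longer list; in replicate 1 it was 1 among the stronger 50% of peaks, 0.5 within 10 kb and 3.5 within 100 kb, and in replicate 2 it was 0 within 10 kb. Shared sites numbered 16, against 36 in the longer list, 10 among the stronger peaks, 6 within 10 kb and 30 within 100 kb. Footprints inside peaks rose from 33 to 74 in replicate 1 and from 70 to 120 in replicate 2 with the longer list. Shared sites with an E-box form known from Twist or Tcf21 numbered 5, against 2 in which a footprint extended by 5 bases held one. The CTCF count of 4 became 3 with up to 1 mismatch and 6 with up to 3, settings chosen after the data were seen. The percent of peaks that overlapped the other library stayed within 1.5 times its main value under each alternative run for it. Counts of shared sites per gene moved for 7 of 10 genes with the longer list and for 0 of 10 when overlap of 50% of the shorter peak was asked. No paired analysis was possible because the series has a single group. With the depth of each library unknown, a gene without a listed peak is one not called here and is not shown to be closed.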
